A study of Rattus norvegicus with 2 samples.

Results

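The miR-17/92 and miR-106b/25 clusters are groups of miRNA hairpins that are cut from shared primary transcripts. The members described here were chosen by name and number 10: miR-17-5p, miR-18a-5p, miR-19b-3p, miR-20a-5p and miR-92a-3p of miR-17/92, miR-106b-5p, miR-106b-3p, miR-93-5p and miR-25-3p of miR-106b/25, and miR-92b-3p, which has the seed of miR-92a-3p and a locus of its own. All 10 were among the 406 rat miRNAs of the deposited table. Of these 10 members, 7 had at least 1 read in a library and 5 had at least 5 reads, as against 120 and 81 of all the miRNAs after rounding to whole reads.

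The study exposed native human HDL (nHDL) for 24 h to INS-1 832/13 cells, a rat insulinoma line used as a beta cell model, or to medium with no cells. Medium in both arms held nHDL at 1 mg/mL without serum, the cells were given 3 mM glucose, and nHDL was re-isolated by immunoprecipitation of apoA-I before its RNA was sequenced. The cell-free control is called cf-nHDL and the nHDL recovered from the cells INS-1-nHDL. Each was 1 library made from a pool of 3 samples. Differences between these libraries therefore have no replicate check in the sequencing, and no test of the conditions was possible on these counts. The study measured chosen miRNAs by PCR as well. The tissue in the labels is HDL, and miRNAs that human nHDL brought along and miRNAs released by rat cells were counted on the same rat sequences and cannot be told apart.

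The 3' and 5' arms of a hairpin can both give a mature miRNA, and bases 2 to 8 of that miRNA, the seed, pair with target mRNAs. miR-17/92 is a well known oncogenic cluster that promotes proliferation and survival, and miR-106b/25 is its paralog inside an intron of Mcm7, a gene for a subunit of the replicative helicase. Neither cluster is specific to beta cells, since both are transcribed in many proliferating cell types.

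The mature sequences of the members, from RefSeq (GRCr8), are shown 5' to 3' with the seed in capitals, because the values below divide by seed. All 10 were found and were the same as in the deposited table. The seed AAAGUGC was shared by 4 members, which target cell cycle inhibitors and proapoptotic genes.
miR-17-5p: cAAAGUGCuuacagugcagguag
miR-20a-5p: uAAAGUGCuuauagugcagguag
miR-93-5p: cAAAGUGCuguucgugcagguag
miR-106b-5p: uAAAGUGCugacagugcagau

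The seed AUUGCAC was shared by 3 members, all from 3' arms. miR-92a-3p is known in endothelium as a regulator of angiogenesis, and miR-25-3p targets the proapoptotic gene Bim.
miR-92a-3p: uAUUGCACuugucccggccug
miR-92b-3p: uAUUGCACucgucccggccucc
miR-25-3p: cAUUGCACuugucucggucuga

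The remaining members each had a seed of their own. miR-18a-5p and miR-19b-3p come from the middle of miR-17/92, and miR-106b-3p is the arm opposite to miR-106b-5p.
miR-18a-5p: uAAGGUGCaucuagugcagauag
miR-19b-3p: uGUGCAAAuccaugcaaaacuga
miR-106b-3p: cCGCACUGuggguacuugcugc

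Within a seed, the closest members differed at only 2 positions over their shared length, which was the case for miR-17-5p and miR-20a-5p over 23 bases and for miR-92a-3p and miR-92b-3p over 21 bases. Alignment allowed 1 mismatch. No member had a decimal count, the sign that reads had been divided among near-identical miRNAs, whereas 11 other miRNAs of the table did.

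The deposited table gives positions on the rat build that the study writes as rno5. The miR-106b/25 members were on the minus strand of chromosome 12, in the order miR-106b-5p at 21365432 to 21365452, miR-106b-3p at 21365391 to 21365412, miR-93-5p at 21365223 to 21365245 and miR-25-3p at 21364981 to 21365002, and the mature miRNAs listed there span 472 nt. In GRCr8, another assembly whose coordinates are not given here, Mir106b, Mir93 and Mir25 all overlap Mcm7. The miR-17/92 members were on the plus strand of chromosome 15 over 762 nt, from miR-17-5p at 103640915 to 103640937, through miR-18a-5p at 103641054 to 103641076, miR-20a-5p at 103641372 to 103641394 and miR-19b-3p at 103641540 to 103641562, to miR-92a-3p at 103641656 to 103641676. miR-17-5p, miR-19b-3p and miR-92a-3p are also placed on chromosome X, in the paralogous cluster of miR-106a, and their reads cannot be assigned to either locus. miR-92b-3p was on the minus strand of chromosome 2 at 207955690 to 207955711, and its gene Mir92b lies between Thbs3 and Muc1 in GRCr8.

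Depth on miRNAs was 6585 reads for cf-nHDL and 18008 reads for INS-1-nHDL. miR-375-3p, a miRNA enriched in beta cells, took 3.51% and 62.3% of them. The DESeq2 size factors were 0.753 (cf-nHDL) and 1.33 (INS-1-nHDL), and 1.76 reads on INS-1-nHDL per read in the control therefore make a fold change of 1. Fold changes divide the normalized count of INS-1-nHDL by that of cf-nHDL and carry an exact 95% interval that covers counting error only. Such an interval treats reads as independent, and since amplified reads are not independent molecules, it may be too narrow. A count of 0 was read as up to 3 reads, which is 0.0456% of the miRNA reads of cf-nHDL and 0.0167% of those of INS-1-nHDL. Other scalings move all log2 fold changes together, by between -0.63 and 0.82, so that ratios between members within a library, to which no scaling applies, are given as well.

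The 3 miRNAs with the seed AUUGCAC carried most of the members' reads, 91 of 93 on cf-nHDL and 182 of 224 on INS-1-nHDL, and had fold changes near 1 under the size factors, while the seed AAAGUGC had 27 reads on INS-1-nHDL against 2 in the control, nearly all from miR-93-5p. miR-106b-3p was read on INS-1-nHDL only. miR-17-5p, miR-18a-5p and miR-19b-3p had no reads in either library.

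**Figure D1:**
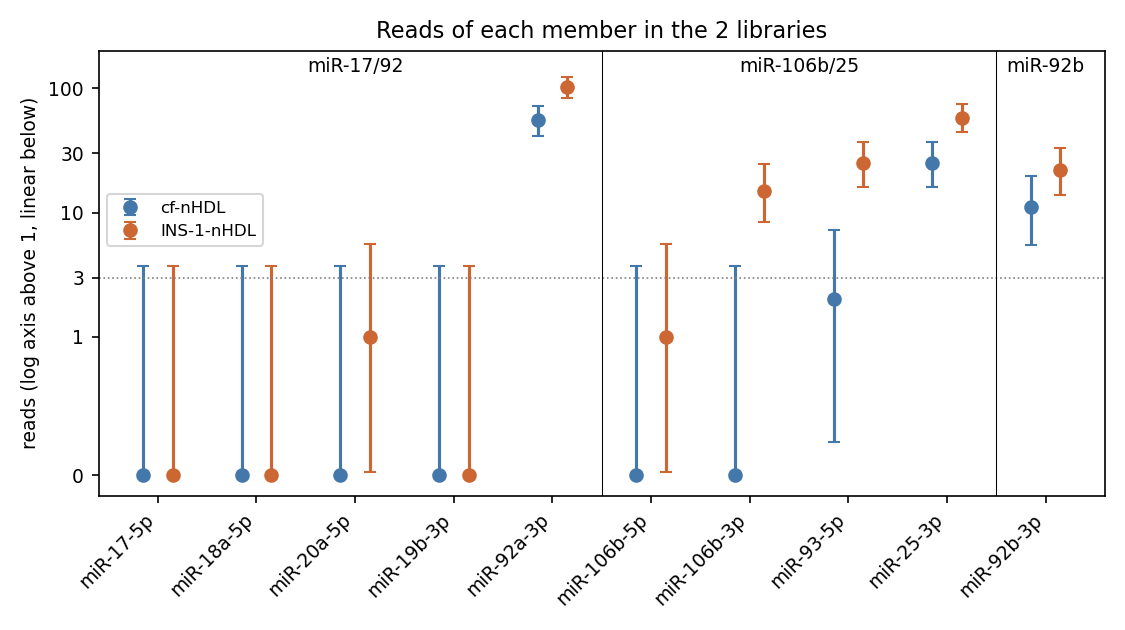
Reads of the 10 members (points) on cf-nHDL (blue) and INS-1-nHDL (orange), 1 library each, with exact Poisson 95% intervals as bars; the axis is logarithmic above 1 and linear below, and the dotted line marks 3 reads. miR-92a-3p, miR-25-3p and miR-92b-3p have reads in both libraries, miR-93-5p and miR-106b-3p have 25 and 15 reads on INS-1-nHDL against 2 and 0, and the other members have at most 1 read.

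Among the miRNAs with the seed AUUGCAC, miR-92a-3p was the most read, with 55 reads on cf-nHDL and 102 reads on INS-1-nHDL. It ranked 13 and 14 among all miRNAs in the respective libraries, so its place in the list hardly moved. Its fold change was 1.05 (95% interval 0.750 to 1.49). It held 0.835% of the cf-nHDL miRNA reads (0.642 to 1.09%, Wilson 95% interval) and 0.566% of those on INS-1-nHDL (0.467 to 0.687%). Without the reads of miR-375-3p the order of these shares turned, to 0.866% and 1.5%.

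miR-25-3p had 25 and 58 reads, ranks 24 and 20, and a fold change of 1.31 (0.810 to 2.19). miR-92b-3p, a miRNA known from neural tissue, had 11 and 22 reads, ranks 38 and 37, and a fold change of 1.13 (0.527 to 2.59). Under the size factors the interval of each of the 3 held 1. That of miR-92a-3p did not with total miRNA reads as the scale, 0.678 (0.484 to 0.959), or with that total less miR-375-3p, 1.74 (1.24 to 2.46), which lie on opposite sides of 1. That of miR-25-3p did not hold 1 either with the total less miR-375-3p, 2.17 (1.34 to 3.62), or with no scaling, 2.32 (1.43 to 3.87), where miR-92a-3p was at 1.85 (1.32 to 2.62). Their summed reads were 91 and 182, and the fold change of the sum was 1.13 (0.877 to 1.47). On these 2 scales the sum was at 0.731 (0.566 to 0.951) and 1.87 (1.45 to 2.43), and with no scaling at 2 (1.55 to 2.6).

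The proportions of the 3 miRNAs to each other, which no scaling touches, differed between the libraries by less than counting error. miR-92a-3p made up 60.4% of their reads on cf-nHDL (49.6 to 70.5%, Clopper-Pearson) and 56.0% on INS-1-nHDL (48.5 to 63.4%). miR-25-3p made up 27.5% (18.6 to 37.8%) and 31.9% (25.2 to 39.2%), and miR-92b-3p 12.1% in both libraries. The odds ratio of INS-1-nHDL against cf-nHDL was 1.25 (exact 95% interval 0.682 to 2.33) for miR-25-3p per miR-92a-3p, 1.08 (0.460 to 2.65) for miR-92b-3p per miR-92a-3p and 1.16 (0.438 to 2.95) for miR-25-3p per miR-92b-3p. All 3 intervals held 1, and each also held values above 2. The loci of these miRNAs lie on different chromosomes, 2, 12, and 15 and X.

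Of the 4 members with the seed AAAGUGC, miR-93-5p had 2 reads on cf-nHDL and 25 reads on INS-1-nHDL, and moved from rank 64 to rank 33. Its fold change was 7.08 with a wide interval of 1.77 to 61.7, and 4.72 with the 2 reads taken as 3, which other scalings moved to between 3.05 and 8.33. miR-20a-5p and miR-106b-5p had 0 reads on cf-nHDL and 1 read each on INS-1-nHDL, too few for a fold change. miR-17-5p, which gives its cluster the name, was not detected at this depth in either library. Summed, the 4 had 2 and 27 reads with a fold change of 7.65 (1.92 to 66.4), and 92.6% of the 27 reads were those of miR-93-5p.

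The difference between the seeds, with miR-93-5p standing for most of the seed AAAGUGC, was larger than counting error. For every 91 reads with the seed AUUGCAC on cf-nHDL there were 2 with AAAGUGC, and on INS-1-nHDL there were 27 for 182, an odds ratio of 6.75 (1.63 to 59.6). Within miR-106b/25, where both seeds come from 1 transcript, the odds ratio of miR-93-5p per miR-25-3p was 5.39 (1.17 to 49.9). Both ratios rest on the 2 cf-nHDL reads of miR-93-5p, and a library-to-library spread could not be measured. Both arms of Mir93 were listed, whereas for Mir25 only the 3' arm was, so that its 5' arm could not be counted. The hairpins of these neighbours from RefSeq (GRCr8) are shown with the counted arm in capitals, the 5' one in Mir93 and the 3' one in Mir25.
Mir93: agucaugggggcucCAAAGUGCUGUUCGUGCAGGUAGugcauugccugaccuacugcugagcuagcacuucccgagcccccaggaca
Mir25: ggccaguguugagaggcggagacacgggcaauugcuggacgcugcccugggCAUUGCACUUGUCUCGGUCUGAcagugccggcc

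miR-106b-3p had 0 reads on cf-nHDL and 15 reads on INS-1-nHDL, where it ranked 48. It was at least 2.83-fold higher on INS-1-nHDL when 3 reads are taken for cf-nHDL, a bound without the counting error of its 15 reads. The exact interval, which includes that error, started lower, at 2.03, and had no upper end. Other scalings moved the bound to between 1.83 and 5. The other arm of the same hairpin, miR-106b-5p, had 0 and 1 read. Of the 16 reads of both arms on INS-1-nHDL, 93.8% were from the 3' arm (Clopper-Pearson 95% interval 69.8 to 99.8%). The arms could not be compared between the libraries, because neither arm was read on cf-nHDL. Against miR-25-3p of the same transcript, the odds ratio of miR-106b-3p had no finite value and an exact interval that started at 1.4. Against miR-93-5p it started at 0.104, so that these counts do not separate miR-106b-3p from miR-93-5p.

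**Figure D2:**
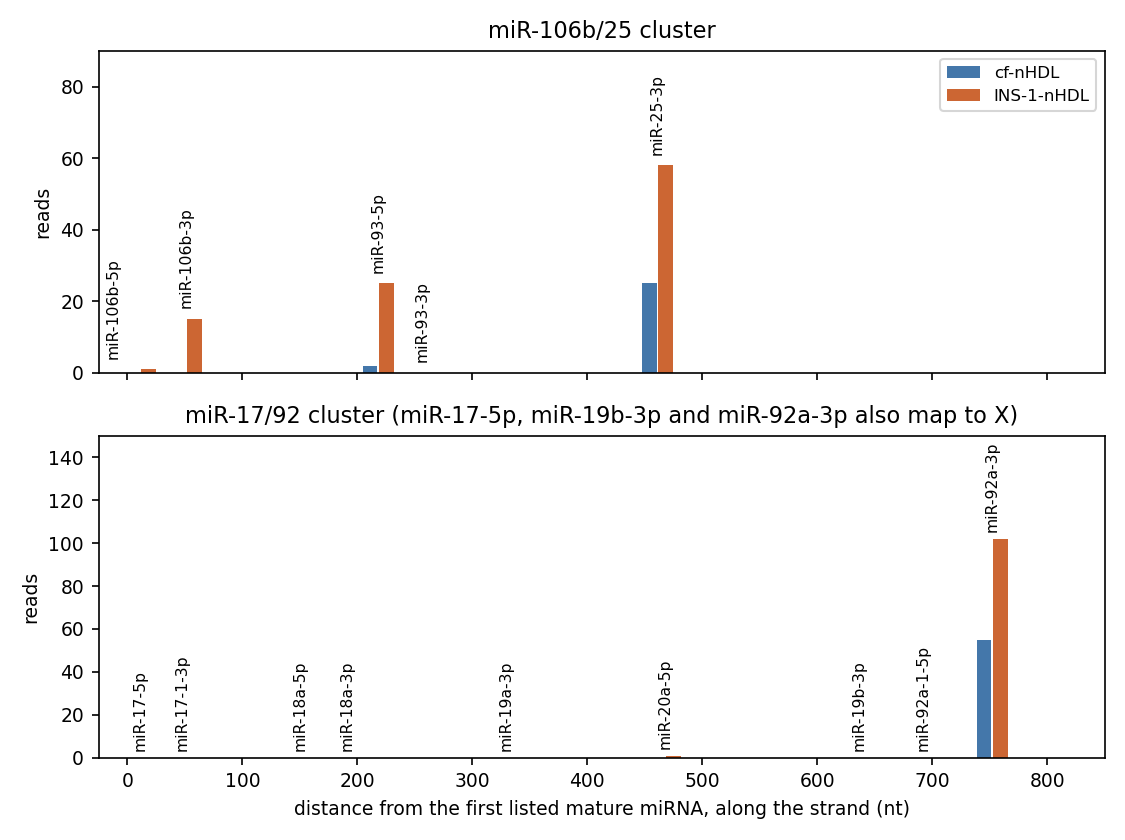
Reads (vertical axis) of every listed mature miRNA of miR-106b/25 (top) and miR-17/92 (bottom) against its distance in nt from the first listed mature miRNA along the strand, with cf-nHDL in blue and INS-1-nHDL in orange, 1 library each. In each cluster the last miRNA has the most reads, miR-25-3p with 25 and 58 and miR-92a-3p with 55 and 102, and in miR-17/92 the others have at most 1 read.

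By locus, the 4 members of miR-106b/25 had 27 reads on cf-nHDL against 99 on INS-1-nHDL, and their fold change was 2.08 (1.35 to 3.31). The members of miR-17/92 had 55 and 103 reads and a fold change of 1.06 (0.758 to 1.5), and all but 1 of those reads were miR-92a-3p. Other scalings moved the first value to between 1.34 and 3.67 and the second to between 0.685 and 1.87, and the lowest of the first, with total miRNA reads as the scale, had an interval that holds 1 (0.869 to 2.14). On that scale the interval of miR-17/92 lay below 1 (0.489 to 0.968). It lay above 1 with the total less miR-375-3p (1.25 to 2.48) and with no scaling (1.34 to 2.65). Reads of miR-106b/25 per read of miR-17/92 were higher on INS-1-nHDL by an odds ratio of 1.96 (1.11 to 3.49). Without miR-106b-3p it was 1.66 (0.936 to 2.99), an interval that holds 1.

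The make-up of miR-106b/25 differed between the libraries. miR-25-3p was 92.6% of its reads on cf-nHDL (75.7 to 99.1%, Clopper-Pearson) and 58.6% on INS-1-nHDL (48.2 to 68.4%), and the intervals did not overlap. miR-93-5p was 7.41% (0.910 to 24.3%) and 25.3% (17.1 to 35.0%), and miR-106b-3p 0% (up to 12.8%) and 15.2% (8.74 to 23.8%). With miR-25-3p left out, the cluster had a fold change of 11.6 (3.02 to 99.2), which rests on 2 cf-nHDL reads, both of miR-93-5p. In miR-17/92, miR-92a-3p made up 55 of 55 reads on cf-nHDL and 102 of 103 on INS-1-nHDL.

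The other mature miRNAs of these loci, the cluster of miR-106a and the AUUGCAC seed that were in the table were miR-17-1-3p, miR-18a-3p, miR-19a-3p, miR-92a-1-5p, miR-92b-5p, miR-93-3p, miR-20b-5p, miR-363-3p and miR-32-5p. Of these 9, miR-363-3p had 1 read on INS-1-nHDL, and the other 8 had none in either library. miR-363-3p has the seed AUUGCAC and ends its cluster, as miR-92a-3p and miR-25-3p end theirs.

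**Figure D3:**
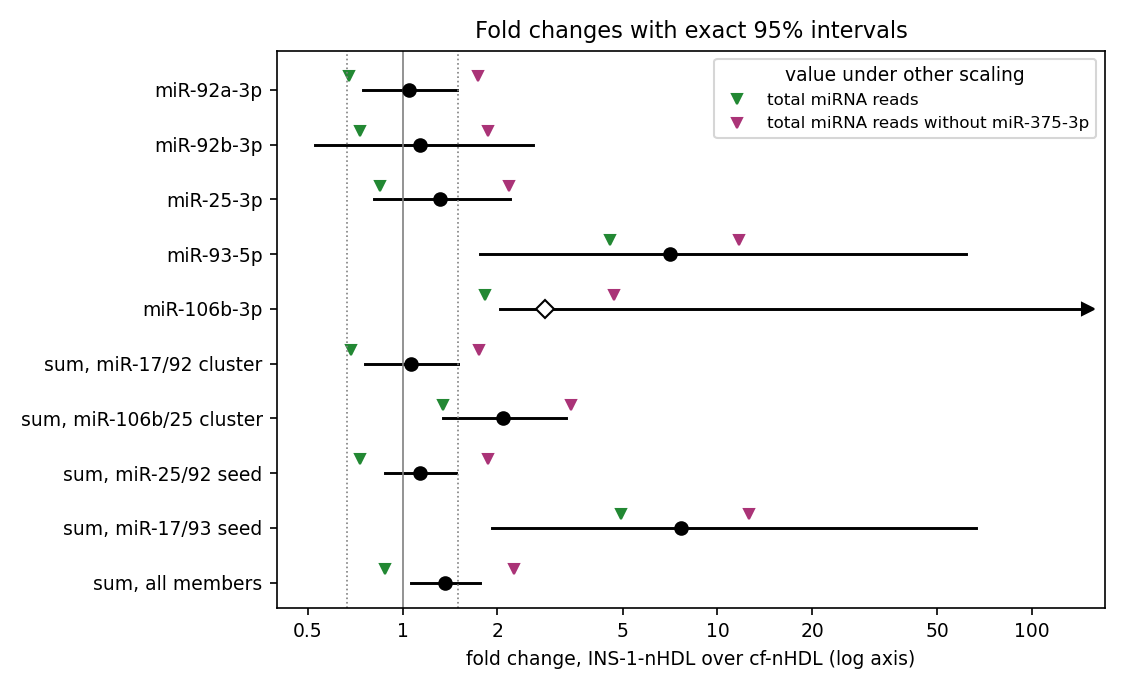
Fold changes of INS-1-nHDL over cf-nHDL (log axis) for the 5 members with at least 5 reads in a library and for summed reads, with exact 95% intervals of counting error (lines). The diamond is the bound for miR-106b-3p with 3 reads taken for cf-nHDL, its line has no upper end, the triangles show the value under 2 other scalings, and the dotted lines mark 1.5 and 1/1.5. The miR-25/92 seed, AUUGCAC, lies near 1 at 1.13 and the miR-17/93 seed, AAAGUGC, at 7.65.

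Among the 81 miRNAs with at least 5 reads in a library, 49.4% had a fold change above 1.5, 37% one below 1/1.5 and 13.6% one between. Of the 5 members among them, 2 were above (miR-93-5p and miR-106b-3p, the latter counted against 0 reads), 0 were below and 3 were between. Both members above had at least 5 reads on INS-1-nHDL only, the library where they are higher, and passed the filter on low counts through it alone, so that their count is a description and supports nothing about the members. The whole interval lay above 1.5 for the same 2 members, beside 33.3% of the 81 miRNAs, and below 1/1.5 for 0 members, beside 29.6%. The 3 members between were 3 of 11 such miRNAs, the others being miR-22-3p, miR-27b-3p, miR-130a-3p, miR-26a-5p, miR-30e-5p, miR-181a-5p, miR-126a-5p and miR-143-3p. With the total less miR-375-3p as the scale, and with no scaling, all 5 members were above 1.5, beside 59.3% of the 81 miRNAs. A change of scaling leaves the order of the miRNAs as it is. When those of the 81 miRNAs that exceeded 3 reads in the control library, 54 in number, were ordered, miR-25-3p had rank 15, miR-92b-3p rank 18 and miR-92a-3p rank 20 from the highest fold change.

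**Figure D4:**
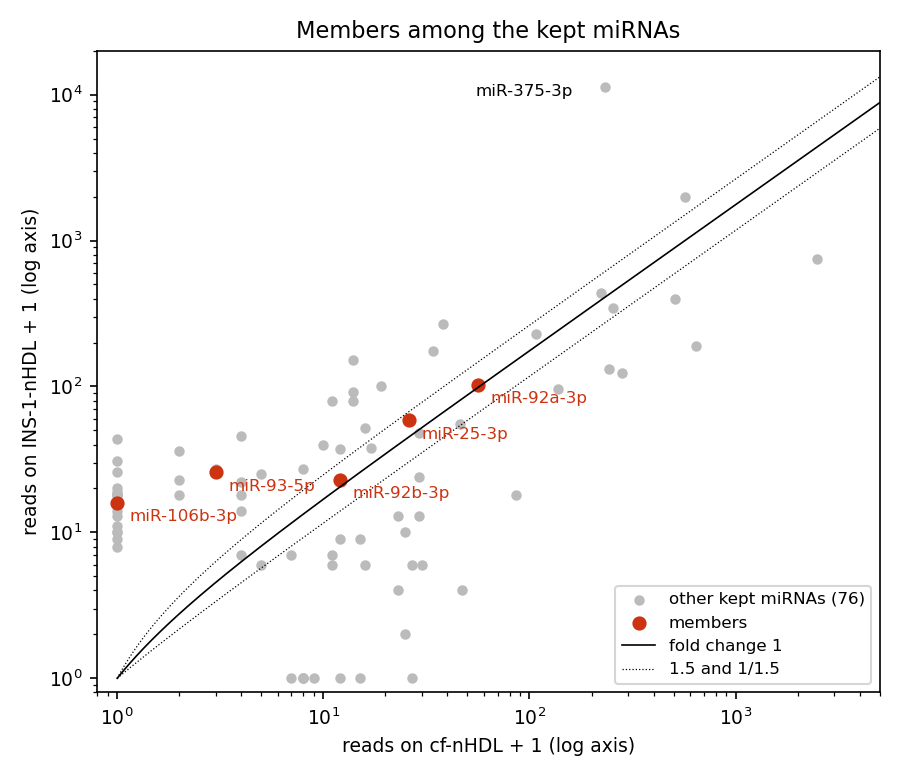
Reads plus 1 on INS-1-nHDL against cf-nHDL (log axes) for the 81 miRNAs with at least 5 reads in a library, 1 library each, with the 5 members in red. The solid line is a fold change of 1 and the dotted lines 1.5 and 1/1.5: miR-92a-3p, miR-92b-3p and miR-25-3p lie between the dotted lines, and miR-93-5p and miR-106b-3p lie above them at the low end of cf-nHDL.

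All 10 members together had 93 reads on cf-nHDL against 224 on INS-1-nHDL, and the fold change of their sum was 1.37 (1.07 to 1.76). It was 0.881 when scaled by total miRNA reads and 2.25 when miR-375-3p was taken out of that total. Their share of the cf-nHDL miRNA reads was 1.41% (1.15 to 1.73%, Wilson 95% interval) and of those on INS-1-nHDL 1.24% (1.09 to 1.42%), and these were 1.46% and 3.30% when miR-375-3p was left out. Measured against all other miRNAs except miR-375-3p, their reads were higher on INS-1-nHDL by an odds ratio of 2.30 (1.79 to 2.97), and those with the seed AUUGCAC alone by 1.91 (1.47 to 2.49). With miR-375-3p among the others, the odds ratio of the members was 0.879 (0.686 to 1.13), an interval that holds 1. The others without miR-375-3p had a fold change of 0.594 themselves, and miR-16-5p held 2486 of their 6261 reads on cf-nHDL and 741 of 6565 on INS-1-nHDL. With miR-16-5p left out too, the odds ratio was 1.56 (1.22 to 2.02) for all members and 1.3 (0.999 to 1.69) for the seed AUUGCAC.

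miR-375-3p itself had 231 and 11219 reads, and per read with the seed AUUGCAC it was higher on INS-1-nHDL by an odds ratio of 24.3 (18 to 32.5). Per read of miR-93-5p the odds ratio was 3.89 (0.443 to 15.7), which holds 1, so that the few reads of miR-93-5p do not set it apart from miR-375-3p. Of 21 miRNAs outside the clusters with at least 50 reads in a library and reads in both, those nearest in log2 fold change to the summed members were miR-130a-3p, miR-22-3p and miR-103-3p, at distances of 0.18, 0.29 and 0.50. With 1 library per condition, likeness here is that of a single ratio.

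Plasma HDL can carry miRNAs of blood cells, and miR-92a-3p, miR-25-3p and miR-93-5p are abundant in red blood cells. Of 4 listed red blood cell miRNAs, miR-16-5p and miR-451-5p had reads, in sum 2512 on cf-nHDL against 746 on INS-1-nHDL, with a fold change of 0.168 (0.155 to 0.183), and the defining miR-144-3p and miR-144-5p were at 0. miR-451-5p, made in red blood cell precursors, had 26 and 5 reads. Reads with the seed AUUGCAC per read of this list were higher on INS-1-nHDL by an odds ratio of 6.73 (5.13 to 8.87). Nearly all reads of the list, 2486 and 741, were those of miR-16-5p, which many other cell types express too, so that both values are in effect those of miR-16-5p. Of 6 listed platelet and white blood cell miRNAs, 5 had reads, in sum 37 and 15, with miR-142-3p at 0. Of 6 listed beta cell and neuroendocrine miRNAs, 4 had reads, in sum 244 and 11395, with miR-96-5p and miR-124-3p at 0. Of these sums, 231 and 11219 reads were those of miR-375-3p, so that they are in effect its values. The part of these cell types in the values of the members was not tested.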

How the data were processed

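Small RNA libraries of cf-nHDL and INS-1-nHDL were sequenced, 1 per condition, each from a pool of 3 samples. The labels name miRNeasy and TruSeq RNA kits, whereas the methods also name a Norgen kit and TruSeq small RNA kits. The authors removed adapters with Cutadapt, aligned reads longer than 16 nt to the rat genome (rno5) with Bowtie 1.1.2 and 1 mismatch, and deposited expected counts per mature miRNA, in which reads of near-identical miRNAs are divided and nothing is normalized. These were rounded to whole reads, with ties to the even number. A second deposited table holds the rounded counts of 81 miRNAs, the same as those here, and the authors' DESeq2 1.18.1 comparison with fold changes and p-values, which was not used.

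Size factors were computed with DESeq2 1.42.0 (R 4.3.3) by the median of ratios over the 64 miRNAs with reads in both libraries. Intervals of fold changes are Clopper-Pearson intervals given the summed count, and odds ratios have exact conditional intervals (scipy 1.17.1). With 1 library per condition no p-value was computed. A library with 0 to 3 reads was taken at 3 reads, and for 1 to 3 reads the ratio as counted is given as well. Sums were taken as counted. Members with at most 3 reads in both libraries have no fold change. The computation was tested on simulated data. The scaling alternatives were edgeR 4.0.16 TMM on the 81 miRNAs, total miRNA reads, the same less miR-375-3p, no scaling and size factors restricted to miRNAs that had 10 or more reads in both libraries.

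The rule for names took all members, the other mature miRNAs of their loci, miR-32-5p, miR-375-3p and the miRNAs nearest in fold change. Those nearest to miR-106b-3p are not given, since its fold change is a bound. miR-27b-3p, miR-26a-5p, miR-30e-5p, miR-181a-5p, miR-126a-5p and miR-143-3p were named after their values were seen. The members and lists were chosen with earlier results of these data known. Of the listed markers, miR-486, miR-486-5p and miR-7a-5p were not analysed here.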

Additional observations from a re-analysis of the deposited data

How the results depend on the processing

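No paired analysis was possible because cf-nHDL and INS-1-nHDL were sequenced once each, and for that reason no replicate was left out. When libraries were scaled by total miRNA reads, by that total less miR-375-3p, or not at all, in that order, miR-106b/25 was at 1.34, 3.43 and 3.67 in place of 2.08, miR-17/92 at 0.685, 1.75 and 1.87 in place of 1.06, the seed AUUGCAC at 0.731, 1.87 and 2 in place of 1.13, and all members at 0.881, 2.25 and 2.41 in place of 1.37. With total miRNA reads as the scale, all of these but miR-106b/25 fell from above 1 to below it. The intervals were 0.489 to 0.968 for miR-17/92, 0.566 to 0.951 for the seed AUUGCAC and 0.689 to 1.13 for all members. These shifts follow from the scale, which moves every fold change alike. TMM and size factors restricted to miRNAs with 10 or more reads in both libraries left these sums within their intervals. So did size factors from the kept miRNAs, chosen after seeing the data, which rest on 56 of the 81. For all members TMM gave 1.25 (0.978 to 1.61) and the other two gave 1.21 (0.949 to 1.56), intervals that hold 1, and for miR-17/92 they gave 0.973 and 0.944. The seed AAAGUGC stayed above 1 under each scaling, from 4.94 to 13.5. Without its member with the most reads, miR-106b/25 was at 11.6 and the whole set at 1.82. Members above 1.5-fold numbered 2 and became 5 with the total less miR-375-3p and 5 without scaling, 4 of 7 with at least 1 read in a library (46.7% of 120 miRNAs) and 1 of 4 with at least 20 reads (46.9% of 49 miRNAs). Of the 4, miR-20a-5p and miR-106b-5p had 0 reads against 1 and were counted as above only because the control had none. With 1 added to both normalized counts, miR-106b-3p was at 12.3 in place of the bound of 2.83. The share of all members on INS-1-nHDL was 3.30% without miR-375-3p in place of 1.24%. The contrasts between seeds and between clusters kept their direction under the alternatives tried. The seed contrast was 5.52 with 0.5 added to each count, 5.6 within miR-106b/25 and 6.08 without miR-92a-3p, the last 2 chosen after seeing the data, as were the cluster contrast without miR-106b-3p, the contrasts with the other miRNAs without miR-16-5p and the ratio as counted for miR-93-5p. Leaving out miR-92a-3p from miR-17/92, the members at several loci, or miR-93-5p from its seed left 0 reads on cf-nHDL and gave no value, as did the contrasts without the most read member on each side, and no pair of members of 1 cluster had more than 3 reads in each library. The arm contrast with 0.5 added was not computed, since all of its cf-nHDL value would be the added 0.5. Low counts limit the cf-nHDL level of miR-93-5p and miR-106b-3p, and why the other members of miR-17/92 had at most 1 read was not tested.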

Other observations

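Most hairpins were read from 1 arm only on INS-1-nHDL. Of 116 hairpins with both arms in the table, 28 had at least 10 reads on INS-1-nHDL, and the less read arm was at 0 reads in 24 of them and under 10% of the reads in 25. The 3' arm had more reads in 15 and the 5' arm in 13. miR-106b, with 15 reads on the 3' arm and 1 on the 5' arm, is among the 25 but not among the 24.

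The seed AUUGCAC was 1 of 3 seeds with at least 3 miRNAs that had more than 3 reads in both libraries. The log2 fold changes of miR-92a-3p, miR-92b-3p and miR-25-3p spanned 0.32, those of the 3 miR-30 miRNAs with the seed GUAAACA spanned 2.23, from miR-30e-5p to miR-30a-5p, and those of the 5 let-7 miRNAs with GAGGUAG spanned 3.39, from let-7a-5p to let-7f-5p. Spans within a seed do not depend on the scaling. Reads of let-7a-5p and let-7c-5p had in part been divided among near-identical miRNAs, and the 3 seeds differ in reads, so the spans are a description.

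The 5 members with at least 5 reads in a library had a GC content of 50 to 63.6%, and the 5 members below that had 39.1 to 47.8%. This split did not extend to the other 9 listed miRNAs of these loci and the seed AUUGCAC, which had at most 1 read. Their GC content ran from 31.8 to 66.7%, and 4 of the 9 had at least 50%. Over the whole table the median was 47.6% for the 81 kept miRNAs and 47.8% for the other 325, so that no such split was seen there.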
